A study of Mus musculus with 8 samples.

Results

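A set of 9 genes of YAP signalling and of the fetal, regenerative state of the gut epithelium was followed through RANKL treatment of intestinal organoids. Yap1, Wwtr1 and Tead1 encode the transcriptional machinery, Amotl2, Ctgf and Cyr61 are genes that YAP switches on, and Clu, Ly6a and Msln mark the fetal or repairing epithelium. The genes were listed by name, with no threshold on their values, and are 9 of the 54532 genes in the count table. The data are 8 libraries of mouse intestinal organoids, 4 labelled control and 4 labelled RANKL. RANKL is the cytokine that activates the receptor RANK, and the comparison asks how the organoid transcriptome differs when RANK is stimulated. Organoids are epithelial structures grown from crypts in a gel without the surrounding stroma. According to the study's methods, mouse intestinal organoids were grown in medium with EGF, NOGGIN and R-spondin, and crypts were plated with a ROCK inhibitor. Some of the study's cultures had less EGF, and the medium of these libraries in particular is not stated. The study's mouse lines were kept on a C57BL/6J background. The dose and duration of RANKL, the number of animals and the age and genotype of the donors of these libraries are not given in the sources used here. Nothing states that replicates came from separate cultures or animals, so p-values measure the spread between these libraries, which may be technical.

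YAP and its relative TAZ are co-activators that the Hippo kinases hold in the cytoplasm by phosphorylation. When the kinases are off, YAP and TAZ enter the nucleus, bind the TEAD factors and turn on genes such as Ctgf and Cyr61. In the gut, injury is known to bring back a YAP-dependent programme of the fetal epithelium, marked by Ly6a and Clu, while crypt base stem cells are replaced.

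Levels are given as counts per 1000000 counts of a library (CPM), scaled with the TMM method. The libraries read transcripts near the 3′ end, so a count was not divided by gene length. Where values of single libraries are listed, they stand in the order of replicates 1 to 4. The totals ran from 583663 to 7807298 counts per library, and the counts of all control libraries summed to 2.81 times those of the RANKL libraries. The shallowest of each group were control replicate 4 (583663 counts) and RANKL replicate 1 (613135 counts). A single count was worth 0.127 CPM at the greatest depth and 1.72 CPM in control replicate 4, where a count of 0 allows up to 5.16 CPM (3 counts). The 9 epithelial identity markers were all expressed, and 3 of them passed the threshold (33.3%, against 25.9% of all genes tested). Cdx1 rose (log2 fold change 0.79), and Krt18 (-0.70) and Krt19 (-0.30) fell. Epcam averaged 1030 ± 38.4 CPM without and 1110 ± 45 CPM with RANKL (SD, n = 4 each). Of 11 M cell markers, which RANKL is known to induce, 8 were tested and all 8 rose (13.6% of all genes tested did). Spib averaged 4.35 ± 1.42 CPM without and 1610 ± 124 CPM with RANKL, while Gp2, a marker of mature M cells, had 0 counts in all 8 libraries.

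TEAD factors bind the letters GGAATG, and the RefSeq promoter table held windows for 4 of the 9 genes: Wwtr1, Cyr61, Yap1 and Amotl2. Clu, Ly6a, Ctgf, Msln and Tead1 have no entry. All 4 matched genes held GGAATG or its reverse complement CATTCC in these windows of 300 bases around the start, as did 4817 of all 32851 windows (14.7%). In each of the 4 genes the match lay upstream of the RefSeq start of its window. The match with 12 bases on either side is printed below for each gene so that the known TEAD letters can be seen in their context. The letters run 5′ to 3′ on the gene's strand of GRCm38.p6, with the match in capitals.
Cyr61: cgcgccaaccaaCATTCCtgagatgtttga
Amotl2: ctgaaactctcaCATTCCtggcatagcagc
Yap1: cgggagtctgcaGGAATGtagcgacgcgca
Wwtr1: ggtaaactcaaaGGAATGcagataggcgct
The windows lie at chr3:145650071-145650100 on the minus strand (Cyr61), chr9:102717727-102717756 on the plus strand (Amotl2), chr9:8004720-8004749 on the minus strand (Yap1) and chr3:57576029-57576058 on the minus strand (Wwtr1). The first base of the match lay 103, 65, 141 and 136 bases before the start in the same order. In another window of Wwtr1 it stood at -170 relative to that window's start. The Amotl2 start used here lies inside the annotated gene (102716672 to 102733418, plus strand), and so does its match. In none of the promoter windows of these 4 genes was the AP-1 motif TGANTCA found, which 7.81% of all promoter windows held on either strand. The related letters GGAATT were found in no window of the 4 genes and in 12.2% of all windows. A loose form of the NF-kB motif, 3 G and 2 C with 5 free letters between, was found in windows of all 4 genes and in 50.8% of all windows. A match describes the letters of a window and is no evidence of binding.

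Yap1 and Tead1 were the most abundant of the 9 genes, and neither passed the threshold of an adjusted p of 0.05. Yap1 encodes YAP itself and lies on chromosome 9 (GRCm38, 7931999 to 8004596, minus strand; ENSMUSG00000053110). It stood at 64.7, 56.6, 57.8 and 55 CPM in control replicates 1 to 4 and at 61.3, 76.4, 66.2 and 88.4 CPM in RANKL replicates 1 to 4. In 3 of 4 RANKL libraries the level was above every control library, and RANKL replicate 1 lay inside the control range. The log2 fold change was 0.32 (SE 0.13, 95% interval 0.06 to 0.59), with an adjusted p of 0.065 in edgeR's quasi-likelihood test over all 9971 genes tested. The interval runs up to a 1.51-fold rise. The call depended on the setting: without control replicate 1 or RANKL replicate 1 the edgeR adjusted p was 0.045 and 0.048. Other settings moved it away from the threshold. Without RANKL replicate 4 the log2 fold change was 0.21 (95% interval -0.08 to 0.50, edgeR adjusted p = 0.33). The adjusted p was 0.2 in DESeq2 and 0.22 in edgeR with no filter.

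Tead1 encodes a DNA-binding partner of YAP and TAZ and lies on chromosome 7 (112679318 to 112906807, plus strand; ENSMUSG00000055320). Its levels were 32.3, 39.7, 43.1 and 51.6 CPM in the control libraries and 40.4, 43.4, 36.5 and 39.5 CPM in the RANKL libraries. All 4 RANKL values fell inside the control range. The log2 fold change was 0.01 (SE 0.16, 95% interval -0.31 to 0.34, edgeR adjusted p = 0.96), so a change beyond 1.26-fold in either direction lies outside the interval.

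Wwtr1, which encodes TAZ, was near the detection limit (chromosome 3, 57455649 to 57575910, minus strand; ENSMUSG00000027803). It had 7, 9, 7 and 3 counts in the control and 1, 2, 3 and 0 counts in the RANKL libraries, which is 0.891, 2.42, 1.77 and 5.16 CPM against 1.61, 1.38, 1.56 and 0 CPM. The groups overlapped. Mean levels were 2.56 ± 1.84 CPM without and 1.14 ± 0.766 CPM with RANKL (SD, n = 4 each; exact two-sided permutation p = 0.2). With 4 libraries a side this test cannot go below 0.0286. Without control replicate 1 the exact permutation p was 0.0286, the smallest that 4 against 3 libraries allow. Pooled over libraries, the level with RANKL was 0.64 times that of control, with a 95% counting interval of 0.215 to 1.59.

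Low counts also set what can be said of the YAP target genes. Of the 9 genes, 3 passed edgeR's filter on low counts (Yap1, Tead1 and Clu) and 6 did not. For those below the filter, the values in each library, the exact permutation test and the ratio of pooled CPM with its counting interval are given in place of a fitted fold change.

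Amotl2 encodes an angiomotin-like protein that binds YAP and is itself a YAP target (chromosome 9, 102716672 to 102733418, plus strand; ENSMUSG00000032531). The control libraries held 2.16, 1.61, 2.03 and 0 CPM and the RANKL libraries 3.23, 2.06, 2.09 and 3.84 CPM. Control replicate 4, at 0 counts, allows up to 5.16 CPM. Mean levels were 1.45 ± 0.995 and 2.81 ± 0.88 CPM (SD, n = 4 each; exact two-sided permutation p = 0.114), and the pooled ratio of RANKL to control was 1.43 (counting interval 0.731 to 2.7).

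Cyr61 and Ctgf, listed as Ccn1 and Ccn2 in the annotation, encode secreted matricellular proteins and are the most widely used readouts of YAP and TAZ. Cyr61 (chromosome 3, 145646976 to 145649981, minus strand; ENSMUSG00000028195) had 28, 8, 0 and 2 counts in control and 2, 2, 1 and 7 counts in RANKL libraries. These are 3.56, 2.15, 0 and 3.44 CPM against 3.23, 1.38, 0.522 and 3.84 CPM. Each group held both high and low libraries, and the means were 2.29 ± 1.65 and 2.24 ± 1.55 CPM (SD, n = 4 each; exact two-sided permutation p = 1). The pooled ratio was 0.875, with a counting interval from 0.416 to 1.71.

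Ctgf (chromosome 10, 24595442 to 24598683, plus strand; ENSMUSG00000019997) was all but absent. Its counts were 1, 2, 0 and 0 in control and 1, 0, 0 and 0 in RANKL libraries, 4 counts in all. At this depth no comparison could be made. Of the other 4 CCN family genes, 0 passed the filter, Wisp2 and Wisp3 had 0 counts in every library, and Wisp1 had 9 counts in control and 4 in RANKL libraries.

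Clu was the only one of the 9 genes past the threshold, 1 of 3 tested, against 25.9% of all genes tested. It encodes clusterin, a secreted chaperone that marks revival stem cells of the injured gut, and lies on chromosome 14 (65968483 to 65981547, plus strand; ENSMUSG00000022037). The control libraries held 25, 18, 17 and 9 counts and the RANKL libraries 7, 12, 16 and 28 counts. In CPM these were 3.18, 4.83, 4.31 and 15.5 in control and 11.3, 8.26, 8.34 and 15.4 in RANKL libraries. All 4 RANKL libraries lay above control replicates 1 to 3 and below control replicate 4, so the groups overlapped. None of the 9 genes separated the groups, whereas the groups did not overlap for 24.6% of the genes tested.

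The log2 fold change of Clu was 1.22 (SE 0.35, 95% interval 0.51 to 1.94), a 2.34-fold rise, with an edgeR adjusted p of 0.0089. On CPM the means were 6.95 ± 5.73 and 10.8 ± 3.35 (SD, n = 4 each), and the exact two-sided permutation p was 0.343. Pooled over libraries, so that deeper libraries count for more, the levels were 4.28 and 10.8 CPM (ratio 2.53, counting interval 1.77 to 3.61). The call was lost without control replicate 1 (log2 fold change 0.94, edgeR adjusted p = 0.051), without RANKL replicate 4 (0.93, adjusted p = 0.12), in the DESeq2 test (1.00, adjusted p = 0.16) and with the library total as a covariate (0.48, adjusted p = 0.41). Without control replicate 4 it was 1.44.

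Clu was lowest in the deepest library and highest in the shallowest, with RANKL replicate 4, of middle depth, close to the latter (15.4 CPM). Library depth differs between the groups, and its part in the rise was not tested beyond the covariate. Summed over 14 mesenchymal markers, the level ran from 32.2 to 108.3 CPM in control and from 51.6 to 80.7 CPM in RANKL libraries, with the highest value of each group in the same shallow libraries, control replicate 4 and RANKL replicate 1. Sparc, Vim and Acta2 were highest in control replicate 4 among the control libraries, at 58.5, 29.2 and 12 CPM against 15.8 to 30.4, 11.6 to 17.7 and 0.509 to 4.81 CPM in the others. Col1a1 and Col3a1 were also highest there among the control libraries, at 1.72 CPM each. Other markers did not follow: Pdgfrb was at 5.16 CPM there and 5.37 CPM in control replicate 2. Col1a2, Lum, Pdgfra, Tagln, Thy1 and Twist2 were at 0 in control replicate 4, and Dcn and Mgp had 0 counts in all libraries. All of these but Pdgfrb, Dcn and Mgp were named after their values were seen. A part of mesenchymal cells in the Clu level was not tested. In bulk RNA, a change in the number of cells with Clu cannot be told apart from a change in Clu per cell. The genes whose levels followed Clu most closely over the 8 libraries were the zinc finger genes Zfp407 (Pearson's r of log2 CPM 0.970) and Zscan12 (0.966), the highest of 9929 genes, and both were also high in control replicate 4. The libraries share their depth with this profile, so the values are a description.

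**Figure D1:**
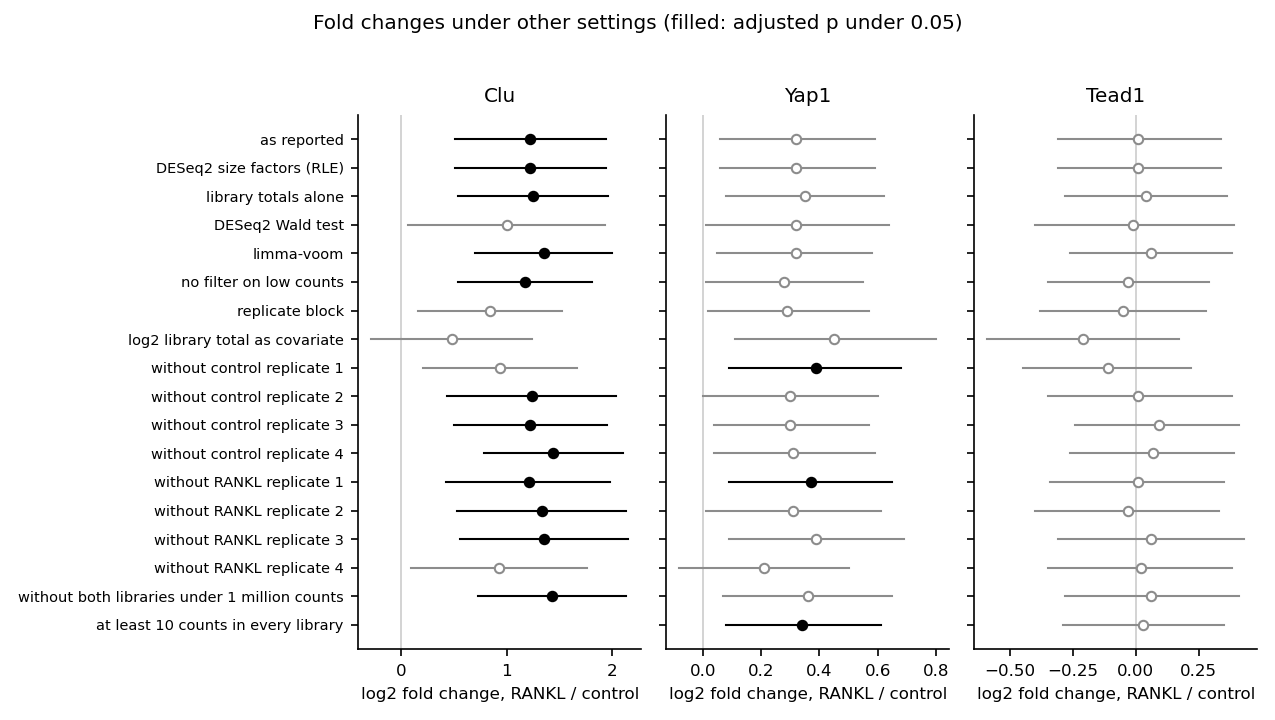
Log2 fold change of RANKL over control (horizontal axis) for Clu, Yap1 and Tead1 as reported and under each alternative (rows), with 95% intervals. Filled points passed an adjusted p of 0.05. Clu stays above 0 in every point estimate but loses the call under 5 settings and is not tested with at least 10 counts in every library. Yap1 passes under 3 alternatives only, and Tead1 lies around 0.

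Ly6a and Msln, markers of the fetal epithelium, were detected in traces. Ly6a encodes the surface protein Sca-1 (chromosome 15, 74994877 to 74998031, minus strand; ENSMUSG00000075602). It had 2, 0, 0 and 1 counts in control and 0, 3, 2 and 4 counts in RANKL libraries, which is 0.255, 0, 0 and 1.72 CPM against 0, 2.06, 1.04 and 2.2 CPM. The groups overlapped, with RANKL replicate 1 at 0 and control replicate 4 at a single count. The pooled ratio was 8.32, with a counting interval of 2.08 to 47.8 that holds no spread between replicates, and the exact two-sided permutation p over libraries was 0.257 (0.494 ± 0.826 against 1.33 ± 1.02 CPM, SD, n = 4 each). When low genes were kept in the fit, the adjusted p of Ly6a was 0.088 in edgeR and 0.2 in DESeq2.

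Msln encodes mesothelin, a surface protein of mesothelium and fetal epithelium (chromosome 17, 25748613 to 25754378, minus strand; ENSMUSG00000063011). The control libraries held 0.891, 1.34, 0.253 and 0 CPM and the RANKL libraries 1.61, 0.688, 0.522 and 3.3 CPM. RANKL replicate 4 alone held 6 of the 9 counts of its group. Mean levels were 0.622 ± 0.609 and 1.53 ± 1.27 CPM (SD, n = 4 each; exact two-sided permutation p = 0.257), and the pooled ratio was 1.92 (counting interval 0.724 to 4.85).

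**Figure D2:**
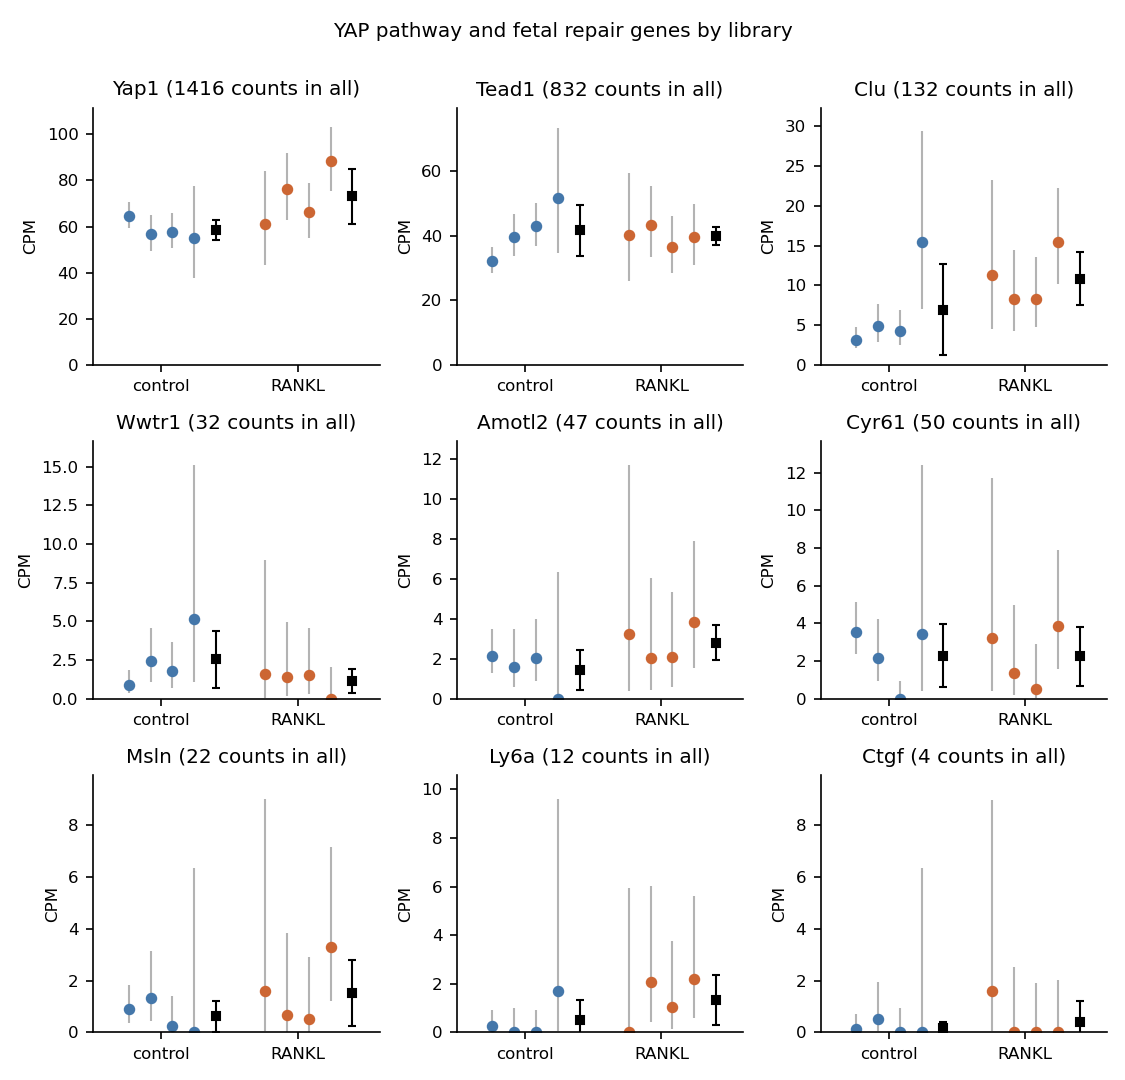
CPM of the 9 genes in each library (vertical axes), control in blue and RANKL in orange, replicates 1 to 4 from left to right. Grey lines are 95% counting intervals of single libraries, and black squares with bars are the mean and SD of 4 libraries. Yap1 and Tead1 were measured precisely in most libraries, whereas the 6 genes with 50 counts or fewer in all have wide intervals that overlap between groups.

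Ordered by mean CPM over the 8 libraries, Yap1 came first at 65.8 CPM, followed by Tead1 at 40.8 and Clu at 8.89. Cyr61 (2.27 CPM), Amotl2 (2.13), Wwtr1 (1.85), Msln (1.08), Ly6a (0.91) and Ctgf (0.285) followed. The lowest library of Yap1 (55 CPM) was above the highest of Tead1 (51.6 CPM), and every library of Tead1 was above every library of Clu. From Clu down, neighbours in this order overlapped in their ranges over libraries. Among the 9971 genes tested, Yap1 ranked 3168, Tead1 4503 and Clu 8799 by level.

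The Hippo kinases and their upstream regulators were mostly well expressed, and 6 of the 21 tested changed (28.6%, against 25.9% of all genes tested). Among these 21 of 28 listed Hippo kinases and upstream regulators, 3 rose (13.6% of all genes tested did) and 3 fell (12.4% did). The median log2 fold change was 0.04, against 0.00 over all genes tested. Fat1, an atypical cadherin upstream of the kinases, measured 44.4, 40.8, 33.5 and 37.8 CPM without and 63, 65.4, 64.7 and 61.5 CPM with RANKL, with no overlap. Its log2 fold change was 0.68 (SE 0.14, edgeR adjusted p = 0.00031).

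Nf2, the gene of the tumour suppressor merlin that recruits the LATS kinases, measured 169, 169, 177 and 126 CPM without and 124, 129, 122 and 106 CPM with RANKL. Its log2 fold change was -0.46 (SE 0.11, edgeR adjusted p = 0.0028), and control replicate 4 reached into the RANKL range. Stk38 (also NDR1, a kinase related to LATS) fell by 0.33 on the log2 scale (SE 0.10, adjusted p = 0.014), and Wwc1, the gene of the scaffold KIBRA, fell by 0.34 (SE 0.11, adjusted p = 0.025). Mob1a, a co-activator of the LATS kinases, rose by 0.38 (SE 0.14, adjusted p = 0.042). Map4k4, a kinase that can act in parallel to MST, was named after its values were seen and rose by 0.28 (SE 0.11, adjusted p = 0.049). With the library total as a covariate 2 of these 6 genes, Fat1 and Wwc1, stayed past the threshold. Wwc1 lost its call without control replicate 3 or 4 or RANKL replicate 2, 3 or 4 (adjusted p from 0.051 to 0.1), and Stk38 without RANKL replicate 1 (0.05) or 4 (0.055). Mob1a lost it in DESeq2 (0.14), with no filter (0.055) and without control replicate 3 or RANKL replicate 2, 3 or 4 (0.073 to 0.17). DESeq2 called 1 gene of this list higher, Fat1, so Map4k4 lost its call there as well.

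Of the core kinases, Stk4, Stk3 and Lats1 did not pass the threshold. Stk4 and Stk3, which encode MST1 and MST2, had log2 fold changes of 0.04 (95% interval -0.21 to 0.29) and -0.11 (-0.54 to 0.33). Lats1 averaged 31.3 ± 5.65 CPM without and 30.5 ± 6.35 CPM with RANKL (SD, n = 4 each; log2 fold change -0.01, 95% interval -0.37 to 0.35). Lats2, both a kinase gene and a YAP target, was below the filter and was not tested. Its levels were 1.53, 0.805, 1.27 and 1.72 CPM without and 3.23, 2.06, 2.09 and 2.2 CPM with RANKL (21 and 13 counts). Every RANKL library was above every control library, as groups did not overlap for 24.6% of the genes tested. Control replicate 4 and RANKL replicate 1 lay under their floors of 3 counts (5.16 and 4.84 CPM), so the separation rests on very few counts. Stk4, Stk3, Lats1 and Lats2 were named after their values were seen.

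Among the TEAD factors and their co-regulators, Tead2 rose and Vgll4 fell. Of 7 TEAD and VGLL genes other than Tead1, 3 were tested and 2 passed the threshold, against 25.9% of all genes tested. Tead2, a TEAD factor of embryonic tissues, measured 10.3, 8.59, 10.1 and 6.88 CPM without and 21, 30.3, 22.9 and 23.6 CPM with RANKL, with no overlap. Its log2 fold change was 1.37 (SE 0.21, edgeR adjusted p = 9.2e-06). Even so, Tead2 with RANKL (24.5 ± 4.04 CPM) remained below Tead1 (39.9 ± 2.82 CPM; SD, n = 4 each), with no overlap of the libraries.

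Vgll4 encodes a co-factor that competes with YAP for TEAD. It measured 102, 101, 162 and 150 CPM without and 72.6, 65.4, 88.7 and 79.1 CPM with RANKL. The groups did not overlap, although the control libraries fell into a low and a high pair. Its log2 fold change was -0.70 (SE 0.15, edgeR adjusted p = 0.00063). Tead3 had a log2 fold change of -0.17 (95% interval -0.67 to 0.33), and Tead4, at a mean of 0.984 CPM in control and 0.831 CPM in RANKL libraries, was not tested.

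**Figure D3:**
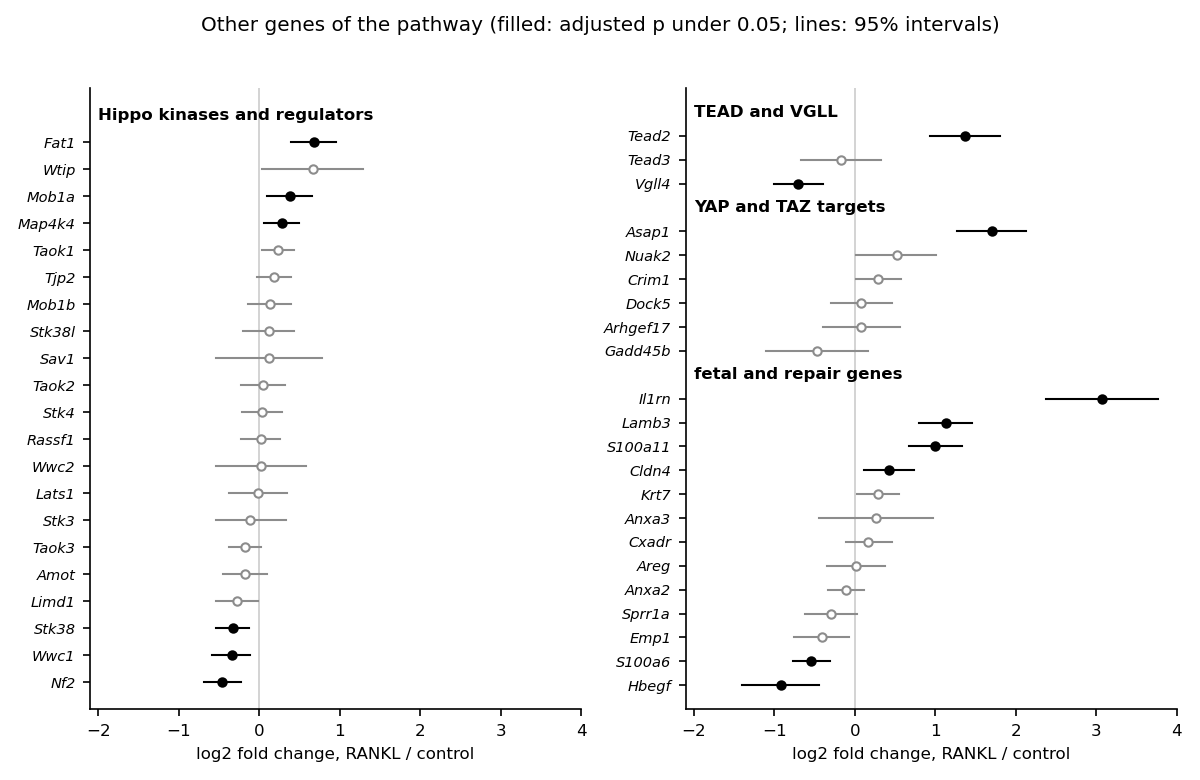
Log2 fold change of RANKL over control (horizontal axis) with 95% intervals for tested genes of 4 lists: Hippo kinases and regulators on the left, TEAD and VGLL genes, YAP and TAZ targets, and fetal and repair genes on the right. Filled points passed an adjusted p of 0.05. Tead2 (1.37), Asap1 (1.70) and Il1rn (3.07) lie far to the right, and most other Hippo genes and targets lie around 0.

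Of 19 other target genes of YAP and TAZ, 6 were tested and 1 passed the threshold (16.7%, against 25.9% of all genes tested). That gene was Asap1, which encodes an ARF GTPase-activating protein of the cell cortex. Its levels were 10.9, 8.86, 8.87 and 20.6 CPM without and 35.5, 29.6, 31.8 and 39.5 CPM with RANKL, with no overlap, and its log2 fold change was 1.70 (SE 0.21, edgeR adjusted p = 1.8e-07). Without RANKL replicate 4, 3 of the targets passed. The median over the 6 was 0.19. Among the 13 targets that were not tested, Ankrd1, a muscle ankyrin repeat gene and a common YAP readout, had 2 counts in control and 0 in RANKL libraries. Axl, a receptor tyrosine kinase gene, was at a mean of 1.83 and 1.88 CPM, and Foxf2 and Ccdc80 had 0 in all libraries. These untested targets were named after their values were seen.

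Fetal and repair genes other than Clu, Ly6a and Msln moved in both directions. Of 26 listed, 14 were tested, 5 rose and 2 fell (7 of 14, against 25.9% of all genes tested), with a median log2 fold change of 0.22. Il1rn, which encodes the interleukin-1 receptor antagonist, measured 1.78, 2.68, 1.27 and 0 CPM without and 21, 15.8, 10.4 and 17.6 CPM with RANKL (log2 fold change 3.07, SE 0.34, edgeR adjusted p = 2.3e-08). It showed the largest change on the list, and the groups did not overlap.

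Lamb3, the gene of a laminin chain of the epithelial basement membrane, averaged 24.4 ± 4.92 CPM without and 51.7 ± 3.6 CPM with RANKL (SD, n = 4 each; log2 fold change 1.13, SE 0.16, edgeR adjusted p = 2.5e-06). The calcium-binding protein genes S100a11 and S100a6 moved in opposite directions: S100a11 rose by 1.00 (SE 0.16, adjusted p = 1.3e-05) and S100a6 fell by 0.54 on the log2 scale (SE 0.11, adjusted p = 0.00041).

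Hbegf, the gene of a membrane-anchored EGF receptor ligand, measured 17.2, 22, 20 and 17.2 CPM without and 4.84, 8.95, 10.4 and 13.2 CPM with RANKL (log2 fold change -0.92, SE 0.24, edgeR adjusted p = 0.0037). Areg, another ligand of that receptor, was at 26.5 ± 4.52 and 26.1 ± 3.94 CPM (SD, n = 4 each; log2 fold change 0.02, 95% interval -0.35 to 0.38). The tight junction gene Cldn4 rose by 0.42 (SE 0.15, edgeR adjusted p = 0.042). DESeq2 called 3 genes of this list higher, Il1rn, Lamb3 and S100a11, so Cldn4 lost its call there. Anxa1 had 3 counts in control and 0 in RANKL libraries and Spp1 had 2 and 0, so these genes of fetal intestinal spheroids were at the detection limit in both groups. Areg, Cldn4, S100a6, Anxa1 and Spp1 were named after their values were seen.

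**Figure D4:**
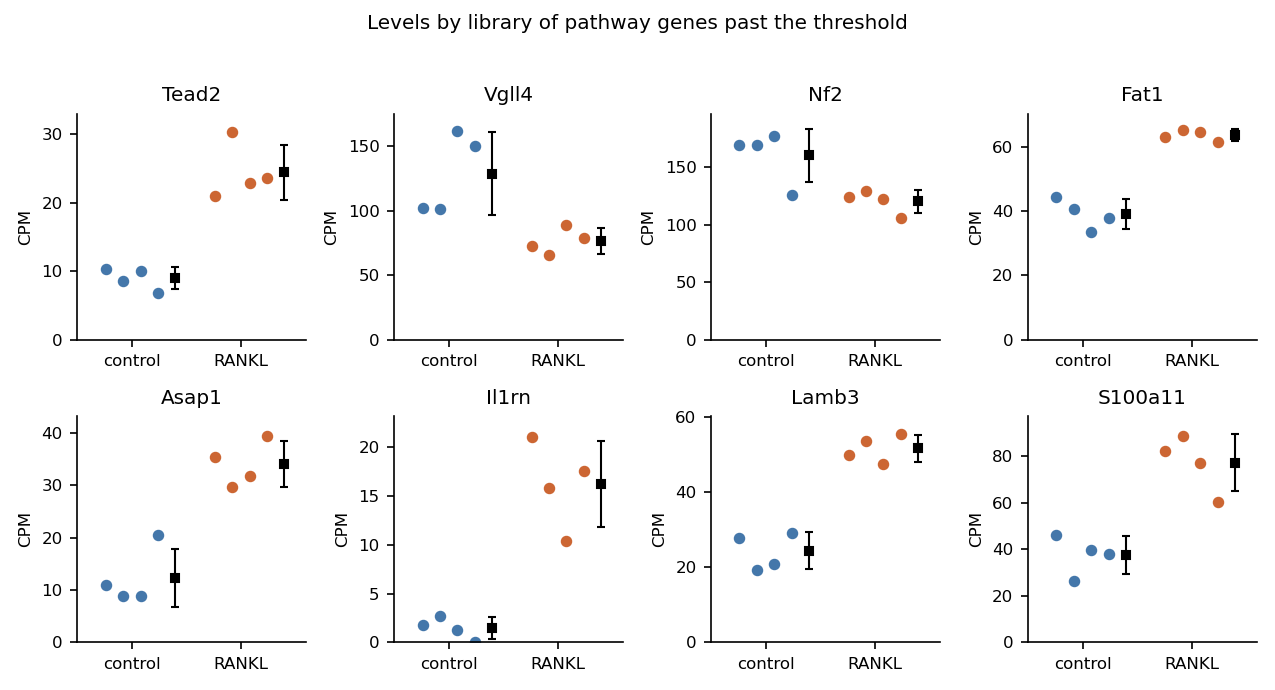
CPM in each library (vertical axes) of 8 pathway genes past the threshold, control in blue and RANKL in orange, with replicates 1 to 4 from left to right and black squares with bars for the mean and SD of 4 libraries. The groups separate for Tead2, Vgll4, Fat1, Asap1, Il1rn, Lamb3 and S100a11, and control replicate 4 of Nf2 (126 CPM) lies in the RANKL range.

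Ly6a belongs to a gene family and is known to respond to interferon, so both were followed beside it. Of 14 other Ly6 family genes, 2 were tested. Lypd8, an antibacterial surface protein gene of enterocytes, averaged 352 ± 42.8 CPM without and 272 ± 6.78 CPM with RANKL (SD, n = 4 each; log2 fold change -0.36, SE 0.10, edgeR adjusted p = 0.0083), and Ly6e had a log2 fold change of 0.27 (95% interval -0.34 to 0.87). Of the 14, 6 had 0 counts in all libraries. Of 18 interferon-inducible genes, 5 were tested and 2 rose (13.6% of all genes tested did). Irf1 averaged 44.9 ± 1.48 CPM without and 138 ± 7.6 CPM with RANKL (SD, n = 4 a group; log2 fold change 1.59, SE 0.11, edgeR adjusted p = 2.2e-12) and Irf7 by 0.93 (SE 0.32, adjusted p = 0.028). Irf7 lost its call in DESeq2 (adjusted p = 0.18), with no filter (0.092), without the shallowest library of each group (0.053) and without control replicate 3 (0.053), RANKL replicate 2 (0.09) or RANKL replicate 3 (0.18). Isg15, at a mean of 1.11 CPM in control and 2.62 CPM in RANKL libraries, was not tested.

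Of the 8 crypt base stem cell markers, all were tested, 4 fell, 1 rose and 3 did not pass the threshold. Among all genes tested, 12.4% fell and 13.6% rose. Lgr5 measured 46.6, 49.4, 41.6 and 43 CPM without and 12.9, 10.3, 6.78 and 11 CPM with RANKL (log2 fold change -2.22, SE 0.20, edgeR adjusted p = 3e-10), and Ascl2 rose by 1.10 (SE 0.18, adjusted p = 1.7e-05). Of the markers of cells outside the epithelium, 3 of 14 mesenchymal, 0 of 7 endothelial and 0 of 12 immune genes were tested. Among them Pdgfrb rose, with 3.87 ± 1.63 CPM without and 19 ± 2.99 CPM with RANKL (SD, n = 4 a group; log2 fold change 2.53, SE 0.30, edgeR adjusted p = 7e-08). The other mesenchymal genes tested, Sparc and Vim, did not rise. Their log2 fold changes were -0.43 (95% interval -0.97 to 0.11) and -0.17 (-0.72 to 0.37). Summed levels were 1.27 to 5.16 CPM in control and 0 to 1.65 CPM in RANKL libraries for endothelial markers, with Cdh5 and Kdr at 0, and 3.44 to 8.87 against 4.13 to 14.5 CPM for immune markers, with Cd3e and Tyrobp at 0. What these cells add to the genes described here was not tested.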

How the data were processed

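Gene expression was measured by 3′ mRNA sequencing in 8 libraries, 4 control and 4 RANKL, grouped by the sample labels. The authors trimmed reads with BBDuk 38.06, removed abundant sequences with bowtie2 2.3.4.1, aligned with STAR 2.6.0c to GRCm38 and counted on Ensembl release 94 genes with featureCounts of subread 1.6.2, using the strand. The deposited values are raw counts per gene, without normalization. Symbols and coordinates come from GENCODE M21, which matched 54409 of 54532 genes, and promoter sequences from RefSeq (GRCm38.p6). No row lacked a gene name.

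The counts were fitted in edgeR 4.0.16 (R 4.3.3) with TMM factors, edgeR's filter on low counts, its quasi-likelihood test between the 2 groups and Benjamini-Hochberg adjustment over the 9971 genes that passed, of which 2587 were called at 0.05. Genes under the filter were compared by an exact permutation test of CPM over 70 assignments. Counting intervals and floors of 3 counts cover counting error only, as PCR copies were not marked. The fit was tested on simulated data. Alternatives were DESeq2 1.42.0, voom in limma 3.58.1, other scaling, filters and thresholds, the library total as a covariate, the replicate number as a block and each library left out. The fit without the shallowest library of each group was added after the data were seen.

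The 9 genes and all lists were chosen with earlier results of these data known. Named beside them were, of each list, up to 5 genes past the threshold with the largest change at a mean of at least 5 CPM, cell type markers at 0, and the 2 genes most like Clu over the libraries. Within a group, Spearman correlations between libraries were 0.9487 to 0.9816, against 0.8729 to 0.927 between groups. Counts of replicates differed by more than sampling noise (chi-square over degrees of freedom 1.25 to 11.9), so no libraries were treated as 1 replicate. Ratios of pooled CPM, which sum the counts of a group, carry counting error only and are given beside the tests over libraries. Some genes of the lists are counted but not reported here by name.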

Additional observations from a re-analysis of the deposited data

Results flagged for a closer look

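In 7 of 78 groups of 4 libraries, 1 library stood far from the other 3 by Dixon's test, where a rate of 1 in 20 would give about 3.9. That rate assumes continuous normal values. It does not hold for groups of very few counts, where a single count can set the outcome. Clu was at 15.5 CPM in control replicate 4 (9 counts), and the next control library was at 4.83 CPM. Ly6a was at 1.72 CPM in the same library, which is a single count, against 0.255 CPM in the next. Ctgf was at 1.61 CPM in RANKL replicate 1, again a single count, with 0 in the other RANKL libraries. Wwtr1 was at 0 CPM in RANKL replicate 4 and at 1.38 CPM in the next lowest. Nf2 was at 126 CPM in control replicate 4, below the other control libraries, of which the lowest was at 169 CPM. Ascl2 was at 27.4 CPM in RANKL replicate 1 (17 counts), with the next at 39.9 CPM. Pdgfrb was at 23.5 CPM in RANKL replicate 3, with the next at 17.8 CPM. Of these values, 5 lie in the shallowest library of either group.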

How the results depend on the processing

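Clu kept its direction under every alternative that tested it (all but at least 10 counts in every library), but its call ended with DESeq2 (log2 fold change 1.00), the covariate (0.48) and the replicate block (0.84). With single libraries left out it ran from 0.93 to 1.44. Yap1 ran from 0.21 to 0.39 and passed with at least 10 counts in every library (0.34). Tead1 ran from -0.11 to 0.09 and turned negative with DESeq2 (-0.01), no filter (-0.03), the block (-0.05) and the covariate (-0.21). By log2 ratio of mean CPM, Cyr61 ran from -0.44 to 0.30, Wwtr1 from -1.45 to -0.57, Ly6a from 1.01 to 3.97, Msln from 0.60 to 2.00 and Amotl2 from 0.54 to 1.21. Of the 9 genes, 0 passed with DESeq2, the block or the covariate, and 0 to 2 with a library left out. Ctgf was given no fold, as both groups were at or under the floor.

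The 2587 calls became 1636 at an adjusted p of 0.01, 577 with a fold of at least 2 and 1853 to 2601 with a library left out. Hippo calls (6) became 2 with the covariate, 2 at 0.01, 0 with the fold and 3 to 6 by library. TEAD and VGLL calls (2) became 1 with the fold and 1 with at least 10 counts. Target calls (1) ran from 1 to 3. Fetal and repair calls (7) became 4 with the covariate, 4 with the fold, 4 with at least 10 counts and 5 to 8 by library. The share of calls that were higher was 52.4%, and 48.5% to 56.4% under other scalings and filters, with a median shift of 0.10 in DESeq2 and -0.11 with no filter.

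Deviations of same-numbered libraries from their group means had correlations of -0.067 to 0.174, against -0.245 to 0.149 for other pairs. No pairing by number was seen, but so few pairs cannot exclude it. Nf2 (-0.34, adjusted p = 0.086) and Hbegf (-0.86, 0.057) lost the call with the covariate, and Lypd8 (-0.31, 0.054) without the shallowest library of each group. With the block, 2610 genes were called.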
